A study of Caenorhabditis elegans with 2 samples.

Results

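The heterochronic genes set which larval stage a cell lineage of *Caenorhabditis elegans* behaves as. Peak summits were collected here at 10 of them, lin-4, let-7, lin-14, lin-28, hbl-1, lin-46, lin-41, lin-66, lin-42 and lin-29. These genes were chosen by name, with earlier results of these data known. They are 8 protein-coding genes and 2 microRNA (miRNA) genes, of 20234 protein-coding and miRNA genes in the WBcel235 (ce11) annotation. For each gene, the window searched was the gene itself and the 5 kb before its start. The windows of the 10 genes held 19 of the 2103 peak summits that the authors' irreproducible discovery rate (IDR) procedure retained.

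Mixed-sex L2 larvae of strain OP355 were the only group, in 2 biological replicates. The strain carries unc-119(tm4063) on chromosome III and wgIs355, an insertion directed at a C. elegans factor tagged with eGFP, and chromatin of the whole organism was analysed, so a peak cannot be assigned to a tissue. What the tagged factor is differs between labels. It is mdl-1, a Mad-like basic helix-loop-helix gene, by the antibody and source labels, and ZK337.2, which is klu-1 in the annotation, by the sample description. The window of mdl-1 held 7 IDR summits, the highest of them ranked 1 of the whole IDR list with a signal of 986. The window of ZK337.2 held 1, of rank 1547 and signal 40.2. Whether the insertion itself adds reads at either locus was not tested, so these values do not settle which label is right. With 1 stage and no other condition, the results below describe where the peaks lay at these genes and how the replicates compared, and no change over developmental time was measured.

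In the heterochronic pathway, lin-14, lin-28 and hbl-1 maintain early larval fates and are turned down as development proceeds. The miRNA lin-4 represses lin-14 and lin-28, and let-7 and its relatives repress hbl-1 and lin-41 later on. At the end of the pathway the zinc-finger factor LIN-29 acts in the hypodermis at the switch from larva to adult.

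Both miRNA genes had an IDR summit in their windows, as did 6 of the 8 protein-coding genes. Among all annotated miRNA genes the share was 21.8%, and among all protein-coding genes it was 14.4%. The protein-coding members without one were lin-46 and lin-29. lin-14 alone held 10 of the 19 summits, lin-42 held 3, and lin-4, let-7, lin-28, hbl-1, lin-41 and lin-66 held 1 each. Counts and shares are given with no test, because the genes were named with earlier results of these data known.

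The sequences around 8 of these summits are given first, since the positions below refer to them. They are 101-base windows centred on the summit, read 5′ to 3′ on the strand of the gene from the RefSeq WBcel235 genome. Capitals mark matches on either strand to the E-box CACGTG, its variant CATGTG, the repeat GAGAGA and the longer motif CTGCGTCT, so that a CATGTG on the other strand reads CACATG and a GAGAGA reads TCTCTC. The pair for the miRNA genes is shown because these were the only IDR summits in the lin-4 and let-7 windows. The 4 from lin-14, named by distance from the gene start, are its 3 highest-signal summits and its only one with CACGTG. The lin-66 and lin-42 windows belong to the highest-signal summits of those genes.
lin-4 upstream summit, chrII:5901796-5901896, plus strand: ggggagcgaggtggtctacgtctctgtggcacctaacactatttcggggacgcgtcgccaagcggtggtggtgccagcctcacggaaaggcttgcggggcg
let-7 upstream summit, chrX:14747105-14747205, minus strand: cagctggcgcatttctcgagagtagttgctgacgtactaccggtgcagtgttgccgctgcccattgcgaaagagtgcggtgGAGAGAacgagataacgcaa
lin-14 summit at 1921 bp, chrX:11467431-11467531, plus strand: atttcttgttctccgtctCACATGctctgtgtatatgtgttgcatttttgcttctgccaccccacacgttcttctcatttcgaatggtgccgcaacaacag
lin-14 summit at 4282 bp, chrX:11469792-11469892, plus strand: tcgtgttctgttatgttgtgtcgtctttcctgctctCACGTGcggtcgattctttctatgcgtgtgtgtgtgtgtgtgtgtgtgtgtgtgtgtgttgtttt
lin-14 summit at 6612 bp, chrX:11472122-11472222, plus strand: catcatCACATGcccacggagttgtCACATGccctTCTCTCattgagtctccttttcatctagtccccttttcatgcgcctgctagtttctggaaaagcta
lin-14 summit at 7884 bp, chrX:11473394-11473494, plus strand: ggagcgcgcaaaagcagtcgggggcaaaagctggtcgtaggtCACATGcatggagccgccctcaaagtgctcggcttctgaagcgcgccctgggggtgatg
lin-66 upstream summit, chrIV:13887646-13887746, plus strand: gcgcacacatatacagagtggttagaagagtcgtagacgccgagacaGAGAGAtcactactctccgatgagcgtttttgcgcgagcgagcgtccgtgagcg
lin-42 summit at 5332 bp, chrII:1246977-1247077, minus strand: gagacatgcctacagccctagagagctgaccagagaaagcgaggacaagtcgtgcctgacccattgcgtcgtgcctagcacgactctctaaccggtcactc

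The mature miRNAs of both genes, with the seed (bases 2 to 8) in capitals, are shown because they define the family to which other genes below belong. The sequence was read from the RefSeq genome at the coordinates of the RefSeq annotation.
lin-4: uCCCUGAGaccucaaguguga
let-7: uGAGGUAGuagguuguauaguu
mir-48: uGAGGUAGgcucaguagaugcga
mir-84: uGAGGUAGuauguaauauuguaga
mir-241: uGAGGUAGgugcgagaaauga
The seed GAGGUAG is shared by let-7, mir-48, mir-84 and mir-241, and that of lin-4 is CCCUGAG.

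**Figure D1:**
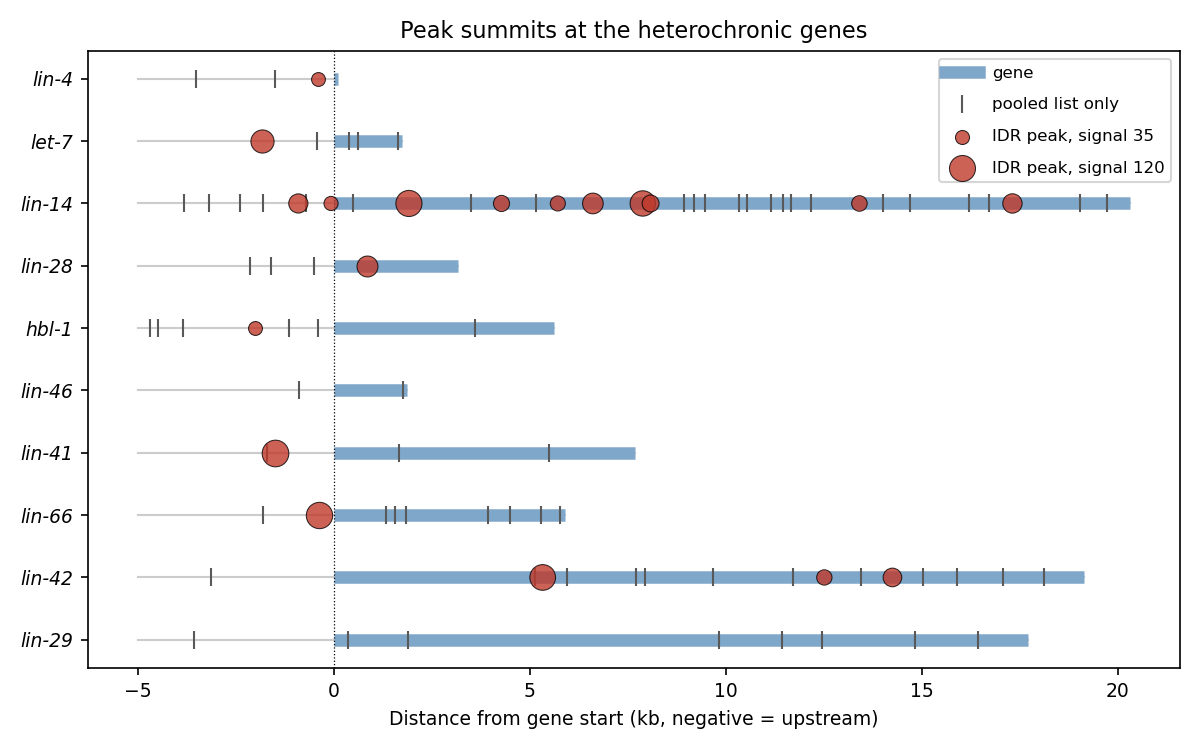
Peak summits in the windows of the 10 genes, by distance in kb from the gene start (x axis), with negative distances upstream. Blue bars are the genes, red circles are IDR summits with area in proportion to their signal, and grey ticks are summits of the pooled list that are not IDR peaks. lin-14 carries 10 circles, 8 of them between 899 bp upstream and 8084 bp inside the gene, and lin-46 and lin-29 carry ticks only.

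At let-7 (X:14743590-14745321, minus strand), whose miRNA rises late in larval life and represses lin-41, the IDR summit lay 1834 bp upstream of the annotated gene start and 2900 bp upstream of the first base of the mature miRNA. Its signal was 95.1, rank 401 of the IDR list. The matched peak had a signal of 35.3 in replicate 1 (rank 436 of 30000) and 58.3 in replicate 2 (rank 422 of 30000). The signal is the authors' value with a scale that is not stated, so it is read within a list, and across lists only the ranks are set side by side. The replicates placed this peak at nearly the same rank. The nearest gene start was that of C05G5.2, with the summit 148 bp upstream of it, so the peak lies closer to that gene than to let-7. Its window, shown above, holds GAGAGA and no CACGTG or CATGTG.

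At lin-4 (II:5902254-5902347, plus strand), the miRNA that ends the first larval program by repressing lin-14, the IDR summit lay 408 bp upstream, with a signal of 34.1 and rank 1958, near the foot of the list, whose lowest signal is 32.5. The matched peak had a signal of 17.6 in replicate 1 (rank 1385) and 20.7 in replicate 2 (rank 2139). It was thus among the 2103 highest-signal peaks of replicate 1 and just outside that number in replicate 2. The summit lies inside an intron of F59G1.4, a protein-coding gene on the same strand, and in an exon of the non-coding RNA gene F59G1.12 on the other strand. Its 101 bases hold none of the motifs searched, and their GC content, 65.3%, was the highest of the 19 windows, which ranged down to 35.6% with a median of 48.5%, against a median of 47.5% over all IDR peaks.

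Among the early regulators, lin-14 (X:11465560-11485871, plus strand) encodes a nuclear DNA-binding protein that maintains first-stage fates and is the principal target of lin-4. Its 10 IDR summits comprised 2 upstream and 8 in introns, with signals from 35.5 to 121. The strongest lay in an intron 1921 bp from the gene start with a signal of 121 and rank 252, in an exon of the non-coding RNA gene T25C12.7 on the other strand. Its matched peak had a signal of 65.5 in replicate 1 (rank 139) and 55.0 in replicate 2 (rank 468). The next, 7884 bp from the start, had an IDR signal of 114 and rank 292, and matched peaks of signal 32.5 in replicate 1 (rank 499) and 78.3 in replicate 2 (rank 255). The replicates therefore differed on which of these was the higher, and both ranked each of them within their first 500 peaks.

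The other intronic summits had lower signals. The one at 6612 bp had a signal of 75.9 (rank 583), with ranks of 779 in replicate 1 and 525 in replicate 2. At 17311 bp the signal was 66.6 (rank 697), with ranks of 627 and 879 in replicates 1 and 2. At 8084 bp it was 50.7 (rank 1082), and this peak overlaps that at 7884 bp by 46 bp, so the pair are not fully separate. The summit at 4282 bp, the only one of the 19 with CACGTG within 50 bp, had a signal of 46.0 (rank 1274) and ranks of 894 in replicate 1 and 2294 in replicate 2. The summits at 13409 and 5718 bp had signals of 43.0 and 40.3. The peak matched to the summit at 5718 bp ranked 7487 in replicate 1 and 956 in replicate 2, which was the widest disagreement among the lin-14 peaks. The replicate 1 peak overlaps it with a summit 227 bp away, against a median gap of 25 bp over the 19 summits in that replicate.

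Upstream of lin-14, a summit at 899 bp had a signal of 65.3 and rank 726, with a signal of 25.3 in replicate 1 (rank 754) and 39.6 in replicate 2 (rank 791). A summit at 65 bp, almost at the gene start, was weaker, with a signal of 35.5 and rank 1838, and ranked 2156 in replicate 1 and 2057 in replicate 2. Both lie in the promoter window, taken as 1000 bp before to 200 bp after the gene start. Neighbouring summits along the gene were a median of 1436 bp apart. The last of them, at 13409 and 17311 bp, lay closer to the start of spp-9, a saposin-like gene beyond lin-14, than to the annotated start of the lin-14 gene. The start of a shorter lin-14 transcript was nearer to both than spp-9, at 1392 bp from the summit at 13409 bp and 2510 bp from that at 17311 bp.

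Of the 10 IDR peaks at lin-14, 7 overlapped, by at least 1 bp, a peak of rank 2103 or better in both replicates. When the peak with the nearest summit had to be among them, 6 did. Below the IDR list, the pooled list held 33 summits in the lin-14 window, 18 of them at a −log10 q of at least 2, and the relaxed list of each replicate held 32.

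**Figure D2:**
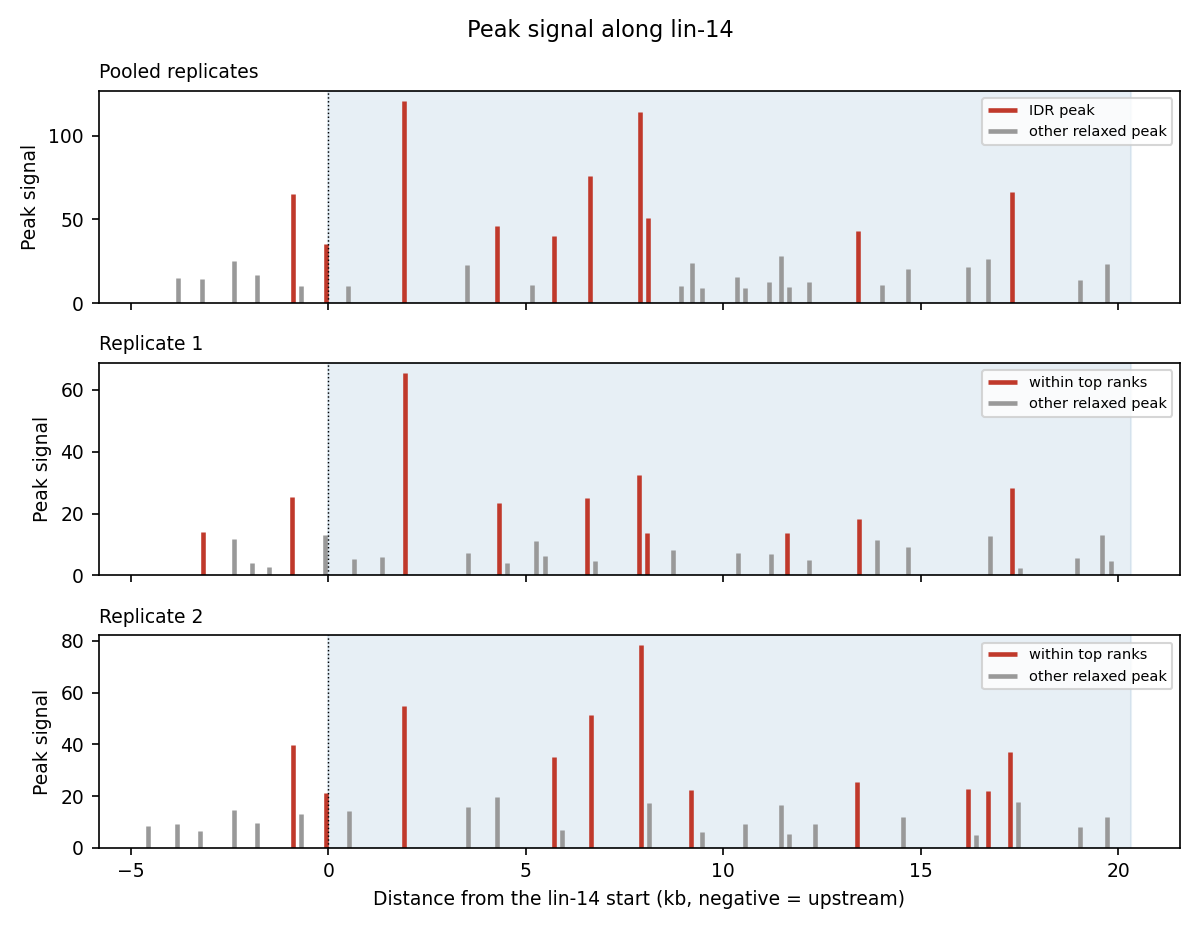
Authors' peak signal (y axis, scale not stated) of every peak in the lin-14 window by distance in kb from the gene start (x axis), in the pooled list, replicate 1 and replicate 2, with the gene shaded. Red bars are IDR peaks in the pooled panel and peaks of rank 2103 or better in the replicate panels; the peaks at 1.9 and 7.9 kb stand highest in the pooled panel, the first of them leads in replicate 1 and the second in replicate 2.

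lin-14 had more IDR summits in its window than any other of the 19973 protein-coding genes, the next being mnk-1 and T28B11.1 with 8 each. The replicates gave 10 and 11 summits in their own top lists of 2103, against at most 8 for any other gene in either. It also had the most with 2 kb or 10 kb upstream (10 in both cases, next 7 and 9), in the gene body alone (8, next 7), among pooled peaks at a −log10 q of at least 2 (18, next 12) and among all pooled peaks (33, next 28). Per length the standing is lower: at 3.95 summits per 10 kb of window, 44 genes had a higher rate. The lin-14 window is 25.3 kb long, against a median of 7.03 kb for protein-coding genes, and of the 404 protein-coding genes with windows of 20 kb or more, 30.0% had an IDR summit and 6.44% had 3 or more.

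**Figure D3:**
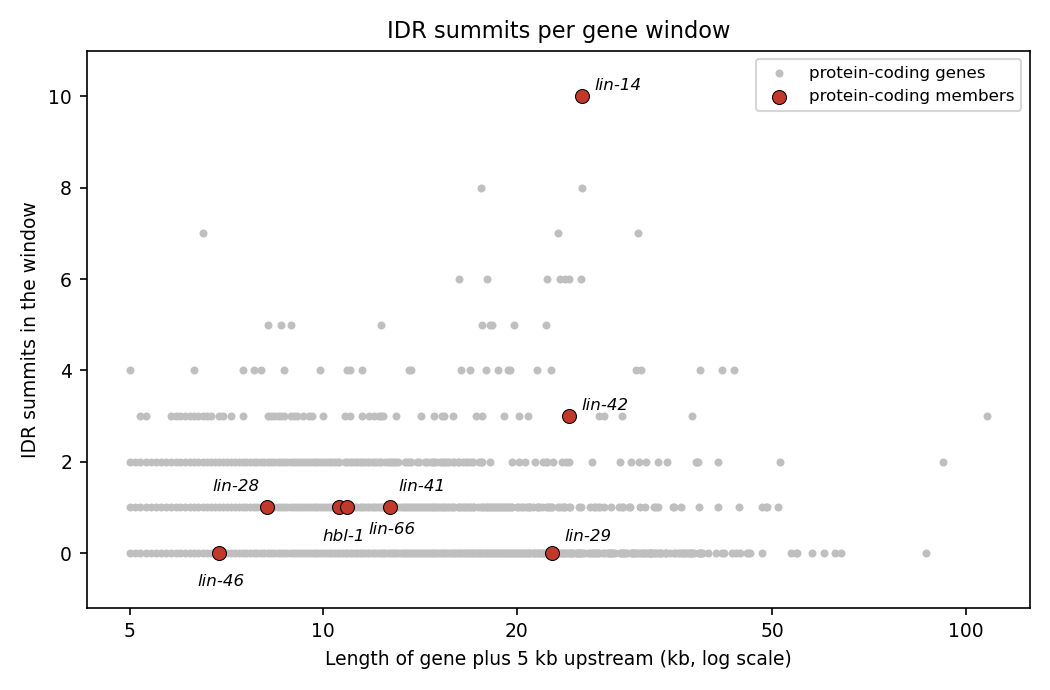
IDR summits (y axis) against window length in kb (x axis, log scale) for all protein-coding genes (grey; genes with equal values overlie each other) and the 8 protein-coding members (red). lin-14 is the highest point at 10, and the next points stand at 8.

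lin-28 (I:8407630-8410804, minus strand) encodes an RNA-binding protein that blocks let-7 maturation and maintains second-stage fates. Its IDR summit was intronic, 848 bp from the gene start and 36 bp upstream of the start of a shorter lin-28 transcript, with a signal of 77.8 and rank 556. The matched peak had a signal of 30.0 in replicate 1 (rank 568) and 45.3 in replicate 2 (rank 644). The replicates placed it alike. A further pooled summit 508 bp upstream had a signal of 27.1 and rank 2692, outside the IDR list. It ranked 1910 in replicate 2, inside that replicate's top list, and the corresponding peak ranked 8607 in replicate 1.

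hbl-1 (X:5822142-5827755, plus strand) encodes a Hunchback-like zinc-finger factor, also of second-stage fates. Its IDR summit lay 2016 bp upstream, with a signal of 34.2 and rank 1947, and falls in an exon of the non-coding RNA gene F13D11.20. The nearest matched peak had a signal of 9.37 in replicate 1 (rank 3644) and 20.8 in replicate 2 (rank 2121). It was thus in the top list of neither replicate. A pooled summit 3837 bp upstream, with a signal of 29.8 and rank 2346, also lay just below the IDR list.

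lin-46 (V:12968855-12970730, plus strand), a gephyrin-like gene that acts downstream of lin-28, had no IDR summit. Its highest pooled summit lay 885 bp upstream, with a signal of 19.9 and rank 4056, and was 12 bp from the start of another gene, R186.8. The peaks nearest to that position had a signal of 12.1 in replicate 1 (rank 2451) and 7.42 in replicate 2 (rank 13632). Replicate 1 also had a peak of signal 12.4 and rank 2365 in the 3′ UTR, 1737 bp from the lin-46 start and 518 bp from that of pnn-1, and replicate 2 had none there. Both lin-46 positions thus stood higher in replicate 1 than in replicate 2.

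Among the later genes, lin-41 (I:9334800-9342496, minus strand), a TRIM-NHL protein gene repressed by let-7, had the highest signal of all 19 summits. Its IDR peak lay 1502 bp upstream, with a signal of 126 and rank 240. The matched peak had a signal of 31.8 in replicate 1 (rank 516) and 91.6 in replicate 2 (rank 188). Both replicates held it in their top lists, replicate 2 nearer the head.

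lin-66 (IV:13888079-13893986, plus strand), whose product limits lin-28, had its IDR summit in its promoter window, 383 bp upstream. The signal was 123 and the rank 250. The matched peak had a signal of 38.8 in replicate 1 (rank 374) and 84.4 in replicate 2 (rank 224). With lin-4 and lin-14, lin-66 was 1 of the 3 members with an IDR summit in the promoter window; 2 of the 8 protein-coding members had one, against 5.86% of all protein-coding genes. Its sequence above holds GAGAGA across the summit and no CACGTG or CATGTG.

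lin-42 (II:1233236-1252359, minus strand), a Period-related gene whose mRNA cycles with the moults, had 3 IDR summits, all inside the gene. The strongest was intronic, 5332 bp from the gene start and 2992 bp upstream of the start of a shorter transcript, with a signal of 117 and rank 271. This summit also falls in an exon of the non-coding RNA gene F47F6.13 on the other strand, and in one of F47F6.15 on the same strand. Its matched peak had a signal of 35.4 in replicate 1 (rank 434) and 86.3 in replicate 2 (rank 215). The second, 14251 bp from the start, had a signal of 61.6 (rank 799) and ranked 890 in replicate 1 and 860 in replicate 2. These 2 were ranked in the same order by both replicates.

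The third lin-42 summit, 12514 bp from the start and 256 bp downstream of the start of another transcript, lies in a coding exon, the only one of the 19 that does. Its signal was 41.7 (rank 1456), and the nearest matched peak ranked 774 in replicate 1 and 6058 in replicate 2, where a neighbouring overlapping peak ranked 1805. Of all protein-coding genes, 0.586% had 3 or more IDR summits. The lin-42 window is 24.1 kb long, and of protein-coding genes with windows of 20 kb or more, 6.44% had 3 or more.

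lin-29 (II:11917642-11935343, minus strand), the terminal zinc-finger gene, had no IDR summit in a window of 22.7 kb. Its highest pooled peak had a signal of 13.3 and rank 7896. The highest peak of replicate 1, with a signal of 8.84 and rank 4034, lay 8442 bp from the start, and that of replicate 2, with a signal of 9.03 and rank 9121, lay at 5287 bp. The highest peaks were therefore at different places in the replicates. A weaker peak is not shown to be absent, since the depth of the libraries is unknown.

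Over the 19 member summits, the median signal was 65.3 (range 34.1 to 126), against 51.5 over all IDR peaks. At rank 525 or better there were 6 of them, 5 ranked from 556 to 799, and 8 ranked from 1082 to 1958 of 2103. In both replicates' top lists, 14 of the 19 peaks were found by overlap, against 68.9% of all IDR peaks. Each replicate's list held 16, against 80.3% of all IDR peaks in replicate 1 and 86.9% in replicate 2. The ranks of the nearest matched peaks ran from 139 to 7487 with a median of 774 in replicate 1, and from 188 to 6058 with a median of 860 in replicate 2. The member peaks were thus spread over the list from rank 240 to near its foot.

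**Figure D4:**
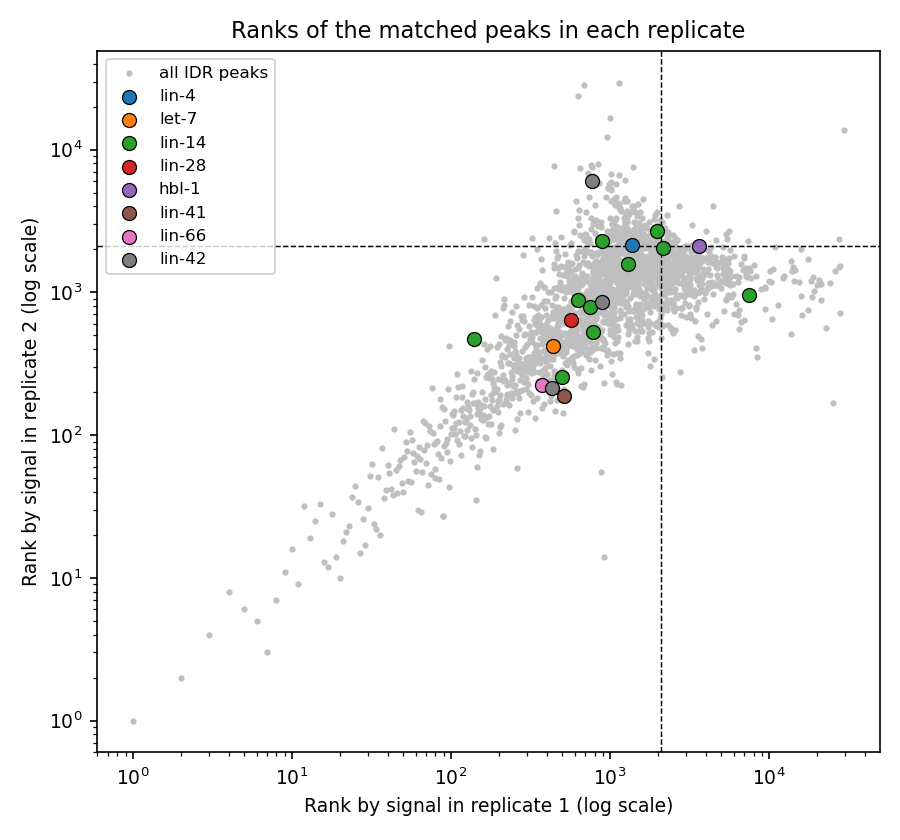
Rank by signal of the peak matched to each IDR peak in replicate 1 (x axis, log scale) and replicate 2 (y axis, log scale); a low rank is a high signal. Coloured points are the 19 member peaks, grey points all IDR peaks matched in both lists, and dashed lines rank 2103; the hbl-1 point lies outside both lines, and 12 of the 19 lie inside both.

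Among each replicate's 2103 highest-signal peaks, replicate 1 placed a summit at 7 of the 10 members and replicate 2 at 6. Of the protein-coding members, 5 were included in each, against 14.2% of all protein-coding genes in replicate 1 and 14.4% in replicate 2. lin-4 was missing in replicate 2, and hbl-1 in both.

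Within the windows, which take in only the gene and the 5 kb before it, 7 summits were upstream, 11 in introns and 1 in a coding exon. Only 4 lay in the promoter window of their own gene, and 6 lay within 1000 bp of the start of any own transcript. The start nearest to the summit was that of the member itself for 16 of the 19. Windows of other protein-coding genes also held 4 of the summits, those of lin-4, let-7 and lin-28 and the lin-14 summit at 17311 bp.

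The windows of the protein-coding members are longer than those of other genes, with a median of 11.8 kb against 7.03 kb, and longer windows held a summit more often. Of genes with a window of 5 to 7.5 kb, which is the class of lin-46, 11.2% had a summit, and of those from 7.5 to 10 kb, the class of lin-28, 16.4%. From 10 to 20 kb, where hbl-1, lin-41 and lin-66 all had one, the share was 22.5%. In windows of 20 kb or more it was 30.0%, and there lin-14 and lin-42 had a summit and lin-29 had none. On chromosome X, which holds lin-14 and hbl-1, 19.0% of protein-coding genes had a summit, against 13.7% on the autosomes. The part of length and chromosome in the members' count was not tested.

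Per length, the protein-coding members had 1.40 IDR summits per 10 kb of window, against 0.221 over all protein-coding windows. Leaving out lin-14 gave 0.728 per 10 kb, and a mean of 1 summit a gene in place of 2.12, against 0.182 over all protein-coding genes. lin-14 thus carries 10 summits and the other 9 members 9 together.

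The motif CACGTG, the E-box that proteins of the Myc and Mad families bind, occurred within 50 bp of 1 of the 19 summits, against 17.2% of all IDR peaks. The wider form, CACGTG or CATGTG, which includes every CACGTG match, occurred at 5, all of them in lin-14, against 27.3% of all IDR peaks. Those 5 were the summits 899 bp upstream and 1921, 4282, 6612 and 7884 bp inside the gene. GAGAGA occurred at 6, against 32.2%, and CTGCGTCT at 0, against 12.2%. Within 50 bp of 12 of the 19 summits there was no CACGTG, no GAGAGA and no CTGCGTCT, against 49.7% of all IDR peaks. A match is a description of the letters in the window and does not show binding.

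Other genes of developmental timing were taken as a list of 30 by role, and 17 of them had an IDR summit. Of the 26 protein-coding ones, 13 had a summit, against the 14.4% given above. Windows of these 26 run from 8.42 to 36 kb, against a median of 7.03 kb for all protein-coding genes. The part of window length was not tested, and in the length classes spanning this range 16.4% to 30.0% of protein-coding genes had a summit. All 3 let-7 relatives in the list had one. The mir-84 summit lay 2335 bp upstream, with a signal of 143 and rank 189 (506 in replicate 1 and 143 in replicate 2). mir-48 and mir-241 are neighbours and share the same summits, the higher of which had a signal of 69.8 and rank 653 and ranked 602 in replicate 1 and 722 in replicate 2. Together with let-7, the 4 genes shown above with the seed GAGGUAG each had a summit upstream, at 3 separate loci, against 21.8% of all miRNA genes. Of these, the let-7 summit lay nearest to the start of C05G5.2, as given above.

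In the steroid hormone arm, which couples timing to growth conditions, 2 of 4 genes had a summit, against 14.4% of all protein-coding genes. In the length classes of these windows the share was 16.4% to 30.0%. din-1, a corepressor of the DAF-12 receptor, had 6, the strongest 730 bp upstream with a signal of 180 and rank 130, ranked 201 in replicate 1 and 103 in replicate 2. daf-12, the nuclear receptor gene itself, had 1 in an intron, with a signal of 112 and rank 305 (254 in replicate 1 and 391 in replicate 2). daf-9, the cytochrome P450 gene that makes the hormone, and dre-1, an F-box gene, had none.

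Of 8 genes of the moulting clock and its cofactors, 3 had a summit, against 14.4% of all protein-coding genes. All 8 have windows of 10 to 20 kb, a class in which 22.5% of protein-coding genes had one. kin-20, the Doubletime-like kinase gene that is a partner of lin-42, had 3, the strongest in an intron 2250 bp from the start, with a signal of 166 and rank 153. myrf-1, a membrane-bound factor gene that promotes lin-4 expression, had 2, the stronger 304 bp upstream with a signal of 112 and rank 304. nhr-85, a nuclear receptor gene, had 1 of signal 44.3 and rank 1333. nhr-23, nhr-25, blmp-1, grh-1 and bed-3 had none.

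Among 7 late regulators and cofactors, 5 had a summit, against 14.4% of all protein-coding genes. In the length classes of the protein-coding ones the share was 16.4% to 30.0%. The 5 include lep-5, a non-coding RNA gene, to which these shares do not apply. mab-10, a cofactor gene of lin-29, and the Makorin gene lep-2 had none. The highest signals were those of nhl-2, a TRIM-NHL cofactor of miRNA silencing, with 353 at rank 28 (33 in replicate 1 and 24 in replicate 2), and puf-9, a Pumilio-family gene, with 289 at rank 45 (32 in replicate 1 and 63 in replicate 2). Both were ahead of every summit of the 10 members in each replicate. The nhl-2 summit lay 843 bp upstream and closer to the start of tag-340. sea-2, a zinc-finger gene, had 1 in an intron with a signal of 188 and rank 121, with CACGTG within 50 bp. apl-1, an amyloid-precursor-like gene, and the non-coding RNA gene lep-5 had 2 each, the stronger ones with signals of 51.6 and 47.0. The stronger lep-5 summit lay 1973 bp upstream, with C02B4.3 as the nearest start among protein-coding and miRNA genes. No share over genes of the class of lep-5 was computed.

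Of 8 genes of the miRNA machinery, 4 had a summit, against 14.4% of all protein-coding genes. In the length classes of these windows the share was 16.4% to 22.5%. ain-1, a GW182-type gene of the silencing complex, had a signal of 246 at rank 71, 933 bp upstream. drsh-1, which encodes the nuclear processing enzyme Drosha, had a signal of 131 (rank 220) with the start of cox-5B nearer, and the Argonaute gene alg-1 had 94.9 (rank 403). The summit of xrn-2, an exonuclease gene, with a signal of 39.9 and rank 1565, ranked 1133 in replicate 1 and 2556 in replicate 2 and lay nearer the start of Y48B6A.1. The Dicer gene dcr-1, pash-1, the partner of drsh-1, and alg-2 and ain-2, the paralogues of alg-1 and ain-1, had none.

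**Figure D5:**
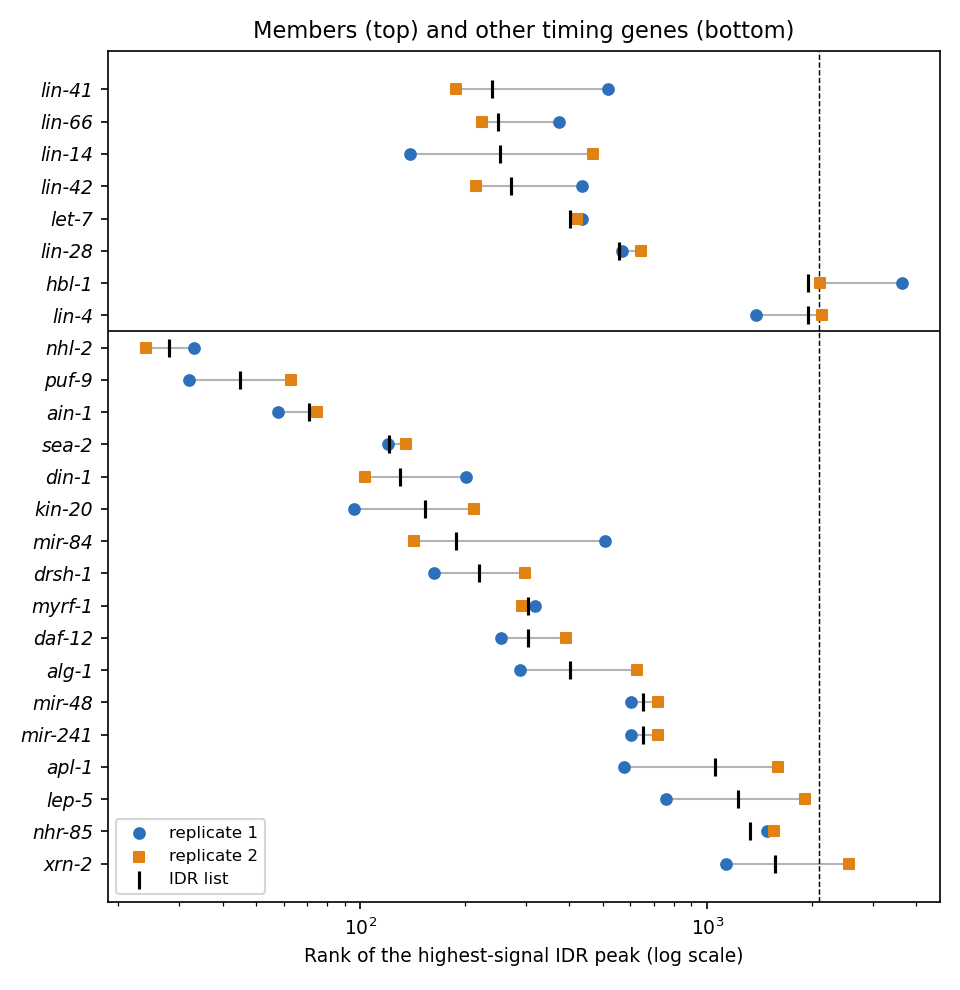
Rank (x axis, log scale) of the highest-signal IDR peak of each gene with one, for the members (above the line) and the other timing genes (below it), in the IDR list (black tick), replicate 1 (blue circle) and replicate 2 (orange square), with rank 2103 dashed. lin-41 leads the members at rank 240, and nhl-2 leads the other timing genes at rank 28.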

How the data were processed

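ChIP-seq peak lists of 2 biological replicates of 1 group were analysed on ce11. The authors deposited, per the labels, relaxed lists for each replicate (30000 peaks each) and for the pool (28651), with an optimal IDR set (2103). Each list gives a signal value, deposited by the authors with its scaling not stated, and a −log10 q-value, deposited by the authors. DNA fragments were 150 to 350 bp, per the labels. How reads were aligned, which program called peaks, what IDR threshold applied and how deep the libraries were is not given in the sources used here, so no counting interval was computed and precision rests on 2 replicates. Whether the replicates came from separate cultures is not stated beyond the word biological. The lists on ce10 were not used.

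Summits were assigned to genes of Ensembl release 115 (WBcel235), with miRNA names from RefSeq, when inside the gene or 5 kb upstream. Peaks were matched between lists by an overlap of at least 1 bp, taking the nearest summit. Each replicate's top list was its 2103 highest-signal peaks. Motif searches covered 50 bp to either side of a summit and both strands. The members, lists and alternatives were chosen with earlier results of these data known, so no test was run. Named genes are all members, the listed timing genes, genes whose start is nearest to a member's summit, and mdl-1 and ZK337.2. Genes at a summit, those nearest to the lin-46 peaks, and those with as many summits as the counts compared, were named after their values were seen. So were genes nearest to a listed timing gene's summit. On simulated data, 200 of 200 summits planted in gene windows, among 19973 genes, were counted in those windows. The planting used the same windows, so it checks the counting and not how the windows were drawn. Alternatives covered the list, peak number, window, assignment, overlap and motif. Python 3.11.15, numpy 2.4.6, pandas 2.3.3 and matplotlib 3.10.9 were used.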

Additional observations from a re-analysis of the deposited data

How the results depend on the processing

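No paired analysis was possible because the 2 replicates form 1 group. With each replicate alone, 6 to 7 members had a summit (8 in the IDR list), with 18 to 19 summits, 16 to 18 other timing genes and 14.2% to 14.4% of all protein-coding genes. The median rank of the members' highest summits was 336 in the IDR list and 445 to 476 by replicate. With the 500 highest-signal peaks, 5 members had 6 summits. The members were the miRNA gene let-7 and the protein-coding genes lin-14, lin-41, lin-66 and lin-42. Of all protein-coding genes, 3.59% had a summit. With pooled peaks at a −log10 q of at least 2 there were 31 summits. Both miRNA genes and every protein-coding member but lin-29 had one, as did 28.0% of all protein-coding genes. In the promoter window alone, 3 members had 4 summits and 6 other timing genes had one. Of the 8 protein-coding members, 2 had one, against 5.86% of all protein-coding genes. The share of all protein-coding genes was 9.75% with 2 kb upstream, 20.9% with 10 kb and 7.37% by nearest start. It was 11.2%, 16.4%, 22.5% and 30.0% from the shortest to the longest windows. Other timing genes with a summit numbered 13 with 2 kb upstream, 21 with 10 kb and 12 by nearest start. Assignment by nearest start took only protein-coding and miRNA starts, so lep-5 could not be counted there. CACGTG or CATGTG gave 5 summits in place of 1. Leaving out lin-14, chosen after seeing the data, left 9 summits. Read depth is unknown, so peaks below the lists are not shown to be absent.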

Other observations

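Besides lin-14, 6 other protein-coding genes had 7 or more IDR summits in the gene or 5 kb upstream, and they were named after their values were seen. T28B11.1 and mnk-1, a MAP-kinase-interacting kinase gene, had 8 each, and H18N23.2, mdl-1, ppfr-1 and ret-1, the reticulon gene, had 7 each. The mdl-1 window is 6.55 kb long and the others run from 17.6 to 30.9 kb. The highest signal in these windows was 986 at mdl-1, 418 at ppfr-1, 323 at T28B11.1, 168 at mnk-1, 140 at H18N23.2 and 104 at ret-1, against 121 at lin-14. lin-14 thus had the most summits and the second-lowest highest signal of these 7 genes.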
